A study of Homo sapiens with 24 samples.

Results

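The pyruvate dehydrogenase genes were followed across drug-treated and untreated SKBr3 cells: PDHA1, PDHB and DLAT, which encode core subunits of the complex, PDP1, PDP2 and PDPR, which encode its phosphatases and their regulatory subunit, and PDK1, PDK2, PDK3 and PDK4, which encode its kinases. They were chosen by gene symbol, all 10 were present among the 14493 genes of the count table, and all 10 passed the filter on low counts in every comparison. The complex sits in the mitochondrial matrix and turns pyruvate into acetyl-CoA, which feeds the tricarboxylic acid cycle and, through citrate, the synthesis of fatty acids. The kinases switch the complex off by phosphorylating serines of the E1α subunit, the phosphatases switch it back on by removing the phosphates, and PDK4 is known as the kinase gene that rises in fasting and with fatty acid use. RNA levels were measured here, and neither phosphorylation of the complex nor its activity was.

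The data comprised 24 mRNA-seq libraries of SKBr3, an established human breast cancer cell line with an amplified ERBB2 gene, in 8 groups of 3 replicates. ND-646, an inhibitor of acetyl-CoA carboxylase, and TVB-3166, an inhibitor of fatty acid synthase, were each given at 250 nmol/L to induce senescence by blocking fatty acid synthesis (FASTIS). Cells in the other forms of therapy-induced senescence (TIS) received doxorubicin (10 nmol/L), palbociclib (labelled Palboclib, 1 μmol/L), bleomycin (10 μmol/L) or alisertib (500 nmol/L), and all 6 treated groups were refed on day 3 and collected at day 7. Untreated cells were proliferative controls, referred to as day-0 cells, and control cells at day 7, whose labels mention no refeeding, and a difference in refeeding, if there was one, cannot be told apart from the drugs in comparisons with them. Every group is of the same line. The methods speak in general of independent experiments for cell-based work but do not say that these replicates were separate cultures, so p-values measure the spread between these libraries, which may be technical.

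The libraries held 29405121 to 44316330 counts, and levels are given as CPM, the usual depth-scaled unit in which a gene's count is divided by its library's TMM-scaled total. The lowest count in the table is 1, so a gene with no read in some library is not listed. The line's markers were present apart from CDH3, with ERBB2 at 5125 to 8828 CPM. CDH3 was not among the listed genes, nor were the leukocyte, endothelial and basal markers PTPRC, CD3E, PECAM1, KRT5 and KRT14. The fibroblast marker COL1A1 was at 6.46 to 15.2 CPM. In bulk RNA, fewer cells expressing a gene and less of its RNA per cell cannot be told apart. Of the libraries used below, ND-646 replicate 1 lay farthest from its own group (mean distance 83.6 between log2 CPM profiles, against 37.7 to 63.3 for the other 23 libraries), and untreated day-0 replicate 1 stood apart from the other day-0 libraries for several of these genes, and calls that change without either are given for the genes concerned. A gene is called higher or lower where edgeR's quasi-likelihood test gave it a Benjamini-Hochberg adjusted p below 0.05, and fold changes are log2 differences in level with their SE.

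The residues on which the kinases and phosphatases act are encoded in PDHA1 (NCBI Gene 5160, chrX:19362011-19379836, plus strand, GRCh37), whose protein has 390 residues. Translating the coding exons placed these serines at residues 293, 300 and 232, which are sites 1, 2 and 3 of the complex. Serine 293 is the site whose phosphorylation is known to stop the enzyme, and serine 232 is known as a site of PDK1. The genomic coding sequence around 2 of them is shown because the kinases and phosphatases below act on serines of this subunit, though not every kinase on each serine. The serine codon is in capitals.
Serine 293, exon 9, chrX:19375791-19375835: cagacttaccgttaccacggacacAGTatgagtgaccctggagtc
Serine 232, exon 7, chrX:19373533-19373583: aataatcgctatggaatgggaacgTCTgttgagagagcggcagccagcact
The codon of serine 300 starts at position 19375836 in exon 9 and ends at 19377034 in the next exon, so an intron divides it and it is not printed.

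The subunit genes were lower in the treated cells, by modest amounts. PDHA1, the catalytic E1α subunit, was at 178.2, 188.4 and 191.5 CPM in untreated day-0 cells and at 171.0, 188.4 and 178.9 CPM in day-7 cells. Its group means were 135.6 ± 3.53 CPM with doxorubicin, 136.4 ± 15.2 CPM with ND-646, 144.7 ± 3.53 CPM with bleomycin, 153.0 ± 6.54 CPM with alisertib, 155.7 ± 5.11 CPM with TVB-3166 and 164.2 ± 5.38 CPM with palbociclib (SD, n = 3). No treated library reached the lowest untreated day-0 library, and neighbouring drugs in this order overlapped. Relative to day-0 cells PDHA1 fell with 5 drugs, by 0.25 (TVB-3166) to 0.46 (ND-646) on the log2 scale, and with palbociclib the difference was -0.18 ± 0.08 (adjusted p = 0.0847). The call with alisertib was lost without alisertib replicate 1 or 3 or day-0 replicate 2. The calls with ND-646 and TVB-3166 are fragile, because they were lost in 5 and 4 of the 6 fits that leave out 1 library, respectively, and with the replicate number as a block.

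DLAT (chr11:111896132-111935128), the E2 subunit that carries the acetyl group on lipoic acid, was lower than in day-0 cells with all 6 drugs. Its level was 269.7, 289.7 and 313.5 CPM in day-0 cells and 161.8, 188.6 and 188.4 CPM in ND-646 cells, the lowest group. The TVB-3166 libraries stood at 216.7, 201.1 and 205.3 CPM, and the alisertib libraries, the highest treated group, at 242.2, 240.3 and 234.6 CPM. Thus no treated library overlapped the day-0 libraries. The log2 fold changes were -0.71 ± 0.15 with ND-646 (adjusted p = 0.00551), -0.58 ± 0.11 with bleomycin, -0.51 ± 0.09 with palbociclib, -0.48 ± 0.09 with TVB-3166, -0.43 ± 0.09 with doxorubicin and -0.28 ± 0.09 with alisertib (adjusted p = 0.0265), and the last call was lost when any alisertib library, day-0 replicate 2 or day-0 replicate 3 was left out. PDHB (chr3:58413357-58419584, minus strand), the E1β subunit, was at 82.7 ± 3.86 CPM in day-0 cells and fell with bleomycin (-0.54 ± 0.10, adjusted p = 0.00144) and doxorubicin (-0.44 ± 0.08, adjusted p = 0.00185), while the other 4 drugs gave -0.18 to -0.37 without a call, of which palbociclib was called without day-0 replicate 1 (-0.26, adjusted p = 0.0335). In ND-646 cells PDHB was 83.9 CPM in replicate 1 and 54.9 and 55.8 CPM in the other replicates, and without replicate 1 it was called lower (-0.58, adjusted p = 0.00113).

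The remaining subunits of the complex, which are not members of the group described here, gave a similar picture. PDHX, the E3-binding protein, was 86.1 CPM in day-0 cells, 60.97 CPM with ND-646 and 70.8 CPM with TVB-3166, with log2 fold changes of -0.51 ± 0.14 and -0.28 ± 0.10 (adjusted p = 0.0189 and 0.0396). DLD, the E3 subunit shared with other 2-oxoacid dehydrogenases, was 296.4, 209.1 and 239.9 CPM in the same groups, with changes of -0.52 ± 0.13 and -0.30 ± 0.09 (adjusted p = 0.0153 and 0.0184). DLD was lower than in day-0 cells with all 6 drugs and PDHX with 4, the exceptions being alisertib and palbociclib.

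**Figure D1:**
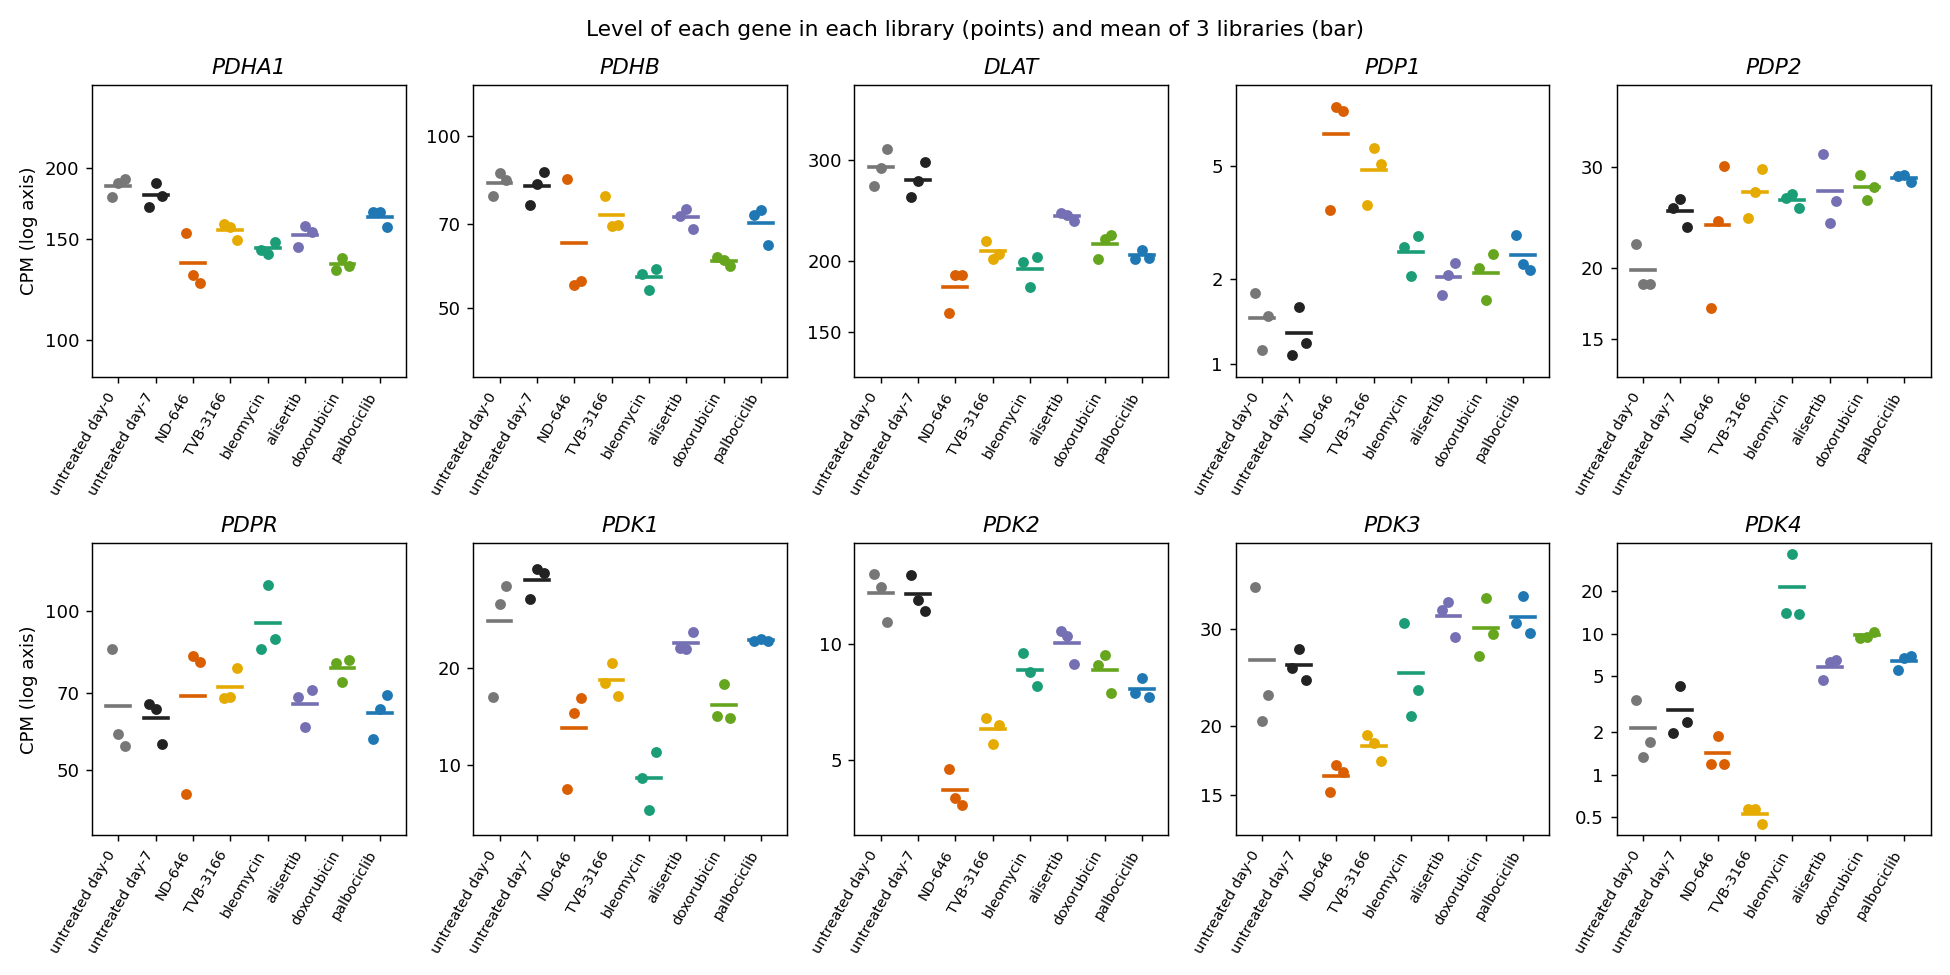
Level of the 10 genes in CPM (log axis) in each library, shown as points by group, with a bar at the mean of 3 libraries. PDP1 is highest with ND-646 and TVB-3166, PDK2 and PDK3 are lowest in both, and PDK4 runs from 0.445 CPM in a TVB-3166 library to 36.4 CPM in a bleomycin library.

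Among the phosphatases, PDP1 (NCBI Gene 54704, chr8:94870035-94938296, plus strand), the catalytic subunit known to respond to calcium, was the one that separated FASTIS cells from the others. Its level was 1.78, 1.12 and 1.48 CPM in day-0 cells and 1.08, 1.59 and 1.19 CPM in day-7 cells. It was 3.51, 8.07 and 7.86 CPM in ND-646 cells and 3.65, 5.82 and 5.10 CPM in TVB-3166 cells. All 6 FASTIS libraries were above every other library, with the lowest ND-646 value again in replicate 1. With the other drugs PDP1 was 2.59, 2.04 and 2.84 CPM (bleomycin), 1.76, 2.06 and 2.29 CPM (alisertib), 2.19, 1.68 and 2.45 CPM (doxorubicin) and 2.87, 2.25 and 2.15 CPM (palbociclib). These 4 groups overlapped one another.

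Relative to day-0 cells, PDP1 rose 4.40-fold in ND-646 cells (log2 fold change 2.14 ± 0.37, adjusted p = 0.00231) and 3.32-fold in TVB-3166 cells (1.73 ± 0.26, adjusted p = 0.000187), and without ND-646 replicate 1 the first value was 2.43. It also rose with bleomycin (0.77 ± 0.27, adjusted p = 0.0400) and palbociclib (0.73 ± 0.26, adjusted p = 0.0369), although both calls were lost in at least 4 of the 6 fits that leave out 1 library, among them those without day-0 replicate 2 (adjusted p = 0.143 and 0.113). With alisertib and doxorubicin the values were 0.48 ± 0.25 and 0.54 ± 0.26 (adjusted p = 0.159 and 0.113). Against day-7 cells PDP1 was higher with ND-646 (2.33 ± 0.36), TVB-3166 (1.93 ± 0.24), bleomycin, palbociclib and doxorubicin. Of these, the doxorubicin call was lost without day-7 replicate 1 or 3, without doxorubicin replicate 1 or 3 and in the fit of all 24 libraries (adjusted p up to 0.126), and the bleomycin call without day-7 replicate 1 or 3 or bleomycin replicate 3. The study itself named PDP1 and PDK4 from these libraries, so their directions here are not independent evidence. PDP1 counts were low, at 35 to 70 reads in the day-0 libraries and 82 to 225 in the ND-646 libraries.

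PDP2 (chr16:66912492-66929657, plus strand), the other catalytic phosphatase subunit, was called higher against day-0 cells with 5 drugs and against day-7 cells with none. It was 22.0, 18.8 and 18.8 CPM in day-0 cells and 25.4, 26.4 and 23.6 CPM in day-7 cells, 2 groups that did not overlap (log2 difference 0.35 ± 0.11, adjusted p = 0.110). Relative to day-0 cells it rose with TVB-3166, bleomycin, alisertib, doxorubicin and palbociclib, by 0.41 to 0.53 on the log2 scale. The bleomycin call was lost without day-0 replicate 2 or 3, and the alisertib call without alisertib replicate 1 or day-0 replicate 2. Relative to day-7 cells edgeR called it with 0 of 6 drugs, DESeq2 also with 0, and palbociclib alone had an unadjusted p under 0.05 in edgeR (0.20 ± 0.09, adjusted p = 0.0839). In ND-646 cells it was 17.0, 24.2 and 30.1 CPM, a spread that covered the untreated libraries, and without replicate 1 it was called higher than in day-0 cells (0.44, adjusted p = 0.0235).

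PDPR (chr16:70148235-70196440, plus strand), the regulatory subunit that lowers the activity of PDP1, was highest with bleomycin at 84.8, 112.2 and 88.4 CPM. In day-0 cells it was 84.7 CPM in replicate 1 and 58.4 and 55.4 CPM in the others, and in ND-646 cells 45.0 CPM in replicate 1 and 82.0 and 80.2 CPM in the others, so single libraries spanned most of its range. The rise with bleomycin was 0.53 ± 0.17 on the log2 scale against day-0 cells (adjusted p = 0.0292, lost without day-0 replicate 2 or 3 or bleomycin replicate 2) and 0.62 ± 0.13 against day-7 cells (adjusted p = 0.00431). PDPR was also higher with doxorubicin than in day-7 cells (0.34 ± 0.09, adjusted p = 0.00932), a call lost without day-7 replicate 3 and in the fit of all 24 libraries. Without day-0 replicate 1 it was called higher than in day-0 cells with TVB-3166 (0.34, adjusted p = 0.0112) and doxorubicin (0.46, adjusted p = 0.00228), and without ND-646 replicate 1 higher with ND-646 than in day-7 cells (0.36, adjusted p = 0.00939). PDPR has a near-identical pseudogene, and how the counting divided reads between them is not given in the sources used here, so its levels are uncertain.

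The kinase genes differed more among groups than the subunits did, and they did not move as a block. The ratio of the highest to the lowest group mean was 40.5 for PDK4 (bleomycin over TVB-3166), 4.10 for PDK1 (day-7 cells over bleomycin), 3.25 for PDK2 (day-0 cells over ND-646) and 1.95 for PDK3 (alisertib over ND-646), against 1.37 to 1.62 for the subunit genes.

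PDK4 (NCBI Gene 5166, chr7:95212811-95225828, minus strand) rose with the 4 other TIS drugs and fell with TVB-3166, while with ND-646 it was not called. It was 3.41, 1.34 and 1.72 CPM in day-0 cells and 1.96, 4.26 and 2.35 CPM in day-7 cells. It was 1.20, 1.87 and 1.19 CPM in ND-646 cells and 0.569, 0.569 and 0.445 CPM in TVB-3166 cells. The TVB-3166 libraries lay below every other library, whereas the ND-646 libraries overlapped the day-0 libraries. In the other TIS cells PDK4 was 14.0, 36.4 and 13.8 CPM with bleomycin, 4.68, 6.31 and 6.47 CPM with alisertib, 9.37, 9.38 and 10.3 CPM with doxorubicin and 5.51, 6.70 and 6.91 CPM with palbociclib. All 12 of these libraries were above all untreated and FASTIS libraries.

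The log2 fold change of PDK4 against day-0 cells was 3.30 ± 0.46 with bleomycin (9.88-fold, adjusted p = 0.000419), 2.16 ± 0.29 with doxorubicin (4.48-fold, adjusted p = 0.000273), 1.55 ± 0.30 with palbociclib (adjusted p = 0.0016) and 1.42 ± 0.31 with alisertib (adjusted p = 0.00584). Bleomycin replicate 2 carried much of the first value, which was 2.67 without it (adjusted p = 0.000467). With TVB-3166 PDK4 fell by 2.03 ± 0.39 (4.07-fold lower, adjusted p = 0.00106). With ND-646 the difference was -0.62 ± 0.40 (adjusted p = 0.260) and against day-7 cells -1.01 ± 0.37 (adjusted p = 0.0648), where DESeq2 gave an adjusted p of 0.0321. Against day-7 cells PDK4 was also called higher with bleomycin, doxorubicin, palbociclib and alisertib, and lower with TVB-3166. Of these, the alisertib call (1.06 ± 0.27, adjusted p = 0.0205) was lost without day-7 replicate 1 or 3 or alisertib replicate 2 or 3. It was also lost in the fit of all 24 libraries. The TVB-3166 values rest on 13 to 18 reads per library and the ND-646 values on 28 to 52.

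PDK2 (NCBI Gene 5164, chr17:48172101-48189516, plus strand), the most widely expressed kinase gene across tissues, was lower with every drug and lowest in FASTIS cells. It was 15.3, 14.1 and 11.5 CPM in day-0 cells and 15.2, 13.03 and 12.2 CPM in day-7 cells. It fell to 4.76, 3.98 and 3.83 CPM in ND-646 cells and 6.42, 5.504 and 6.16 CPM in TVB-3166 cells. These 2 groups overlapped neither each other nor any other group. With the other drugs it stood between 7.30 CPM (a palbociclib library) and 10.8 CPM (an alisertib library), below all untreated libraries. The log2 fold changes against day-0 cells were -1.71 ± 0.20 with ND-646 (adjusted p = 0.000316), -1.17 ± 0.16 with TVB-3166 (adjusted p = 9.83e-05), -0.83 ± 0.15 with palbociclib, -0.66 ± 0.17 with bleomycin, -0.66 ± 0.15 with doxorubicin and -0.44 ± 0.14 with alisertib (adjusted p = 0.0371). The call with alisertib was lost when any alisertib library, day-0 replicate 1 or day-0 replicate 2 was left out. Against day-7 cells PDK2 was called lower with every drug too. There the alisertib call (-0.41 ± 0.13, adjusted p = 0.0479) was lost when any 1 library was left out. It was also lost with no low-count filter or a stricter one and in the fit of all 24 libraries.

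The bases before the starts of PDK4 and PDK2 are shown because these kinase genes diverged in the other TIS cells, PDK4 rising where PDK2 fell. The 250 bases upstream of each RefSeq start (GRCh38 table) were placed on GRCh37 by an exact match and searched on both strands for ACGTG, the core bound by hypoxia-inducible factors, AGGTCA, an element of nuclear receptors such as the PPARs, CCAAT, and GTAAACA, a forkhead element. Capitals mark matches, which read ATTGG or CACGT where they lie on the opposite strand.
PDK4, chr7:95225829-95226078, minus strand: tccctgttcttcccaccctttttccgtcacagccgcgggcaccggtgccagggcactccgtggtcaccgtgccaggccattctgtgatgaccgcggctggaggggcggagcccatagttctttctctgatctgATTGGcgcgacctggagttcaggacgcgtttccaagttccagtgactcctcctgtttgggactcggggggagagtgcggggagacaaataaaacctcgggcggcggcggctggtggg
PDK2, chr17:48172465-48172714, plus strand: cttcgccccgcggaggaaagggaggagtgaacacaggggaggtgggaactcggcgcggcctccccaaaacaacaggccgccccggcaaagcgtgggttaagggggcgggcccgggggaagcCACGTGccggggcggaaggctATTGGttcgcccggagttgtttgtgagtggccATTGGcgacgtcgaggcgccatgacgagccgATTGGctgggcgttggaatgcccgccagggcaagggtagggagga
The PDK4 window held 1 CCAAT match and none of the other 3 motifs. The PDK2 window held 3 CCAAT matches and 2 overlapping ACGTG matches, both within 1 CACGTG. Over 35116 RefSeq promoters of the same length, 32% held CCAAT, 18.5% ACGTG, 12.1% AGGTCA and 2.98% GTAAACA. In the windows of PDK1 and PDK3, ACGTG matched 2 times and 1 time and CCAAT 0 times and 1 time, respectively, with no AGGTCA or GTAAACA. These are matches of letters, and no binding was measured. The PDK2 window, like that of PDK1, lies inside the gene's annotated span. Each precedes a RefSeq start, and the annotated gene begins farther upstream.

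PDK1 (NCBI Gene 5163, chr2:173420101-173473397, plus strand), a kinase gene known as a target of hypoxia-inducible factors, was lowest with bleomycin. Its level was 16.3, 31.5 and 36.0 CPM in day-0 cells and 32.7, 40.7 and 39.3 CPM in day-7 cells, and the low day-0 library was replicate 1. It was 8.44, 14.6 and 16.2 CPM in ND-646 cells, 18.03, 20.8 and 16.4 CPM in TVB-3166 cells and 9.14, 7.28 and 11.04 CPM in bleomycin cells. Doxorubicin gave 14.2, 17.9 and 14.1 CPM, alisertib 23.1, 23.0 and 25.8 CPM and palbociclib 24.3, 24.6 and 24.3 CPM. The alisertib and palbociclib libraries lay within the range of the day-0 libraries and below the day-7 libraries.

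Against day-0 cells PDK1 fell with bleomycin (-1.61 ± 0.28, adjusted p = 0.00136), ND-646 (-1.10 ± 0.33, adjusted p = 0.0291) and doxorubicin (-0.85 ± 0.25, adjusted p = 0.0176), and the difference with TVB-3166 was -0.60 ± 0.24 (adjusted p = 0.0504). The ND-646 call was lost without day-0 replicate 2 or 3, the doxorubicin call also without doxorubicin replicate 1 or 3, and the TVB-3166 value became -0.87 (adjusted p = 5.35e-05) without day-0 replicate 1, when alisertib (-0.48, adjusted p = 0.00324) and palbociclib (-0.46, adjusted p = 0.00336) were called too. Against day-7 cells PDK1 was lower with all 6 drugs, from -0.61 ± 0.10 with palbociclib to -2.02 ± 0.16 with bleomycin, although the alisertib call was lost in the fit of all 24 libraries (adjusted p = 0.0783). These 6 comparisons share the day-7 libraries.

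PDK3 (NCBI Gene 5165, chrX:24483361-24568583, plus strand), an isoform of narrower tissue distribution, was lowest in FASTIS cells. It was 35.7, 20.5 and 22.8 CPM in day-0 cells, with the high value in replicate 1, and 25.5, 27.6 and 24.2 CPM in day-7 cells. It was 15.2, 17.0 and 16.5 CPM in ND-646 cells and 19.3, 18.6 and 17.3 CPM in TVB-3166 cells. All 6 FASTIS libraries were below the other 18 libraries. With the other drugs PDK3 was between 20.8 CPM (a bleomycin library) and 34.4 CPM (a palbociclib library). Against day-0 cells PDK3 fell by 0.71 ± 0.22 with ND-646 (adjusted p = 0.0333) and by 0.52 ± 0.18 with TVB-3166 (adjusted p = 0.0334), and both calls were lost without day-0 replicate 1 (-0.43 and -0.23, adjusted p = 0.104 and 0.131). The first was also lost without ND-646 replicate 2 or 3 or day-0 replicate 3, and the second without any 1 of the TVB-3166 libraries. Without day-0 replicate 1, PDK3 was instead called higher than in day-0 cells with alisertib (0.56, adjusted p = 0.00156), palbociclib (0.55, adjusted p = 0.00185) and doxorubicin (0.48, adjusted p = 0.00999). Against day-7 cells the falls were 0.67 ± 0.13 and 0.48 ± 0.10 (adjusted p = 0.00604 and 0.00182), whereas PDK3 was higher with alisertib (0.31 ± 0.09, adjusted p = 0.0373) and palbociclib (0.30 ± 0.10, adjusted p = 0.0247). The alisertib call was lost in all leave-outs but that of day-7 replicate 2 and in the fit of all 24 libraries (adjusted p up to 0.276), and the palbociclib call without day-7 replicate 1 or 3 or palbociclib replicate 2 and in that fit (up to 0.171).

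**Figure D2:**
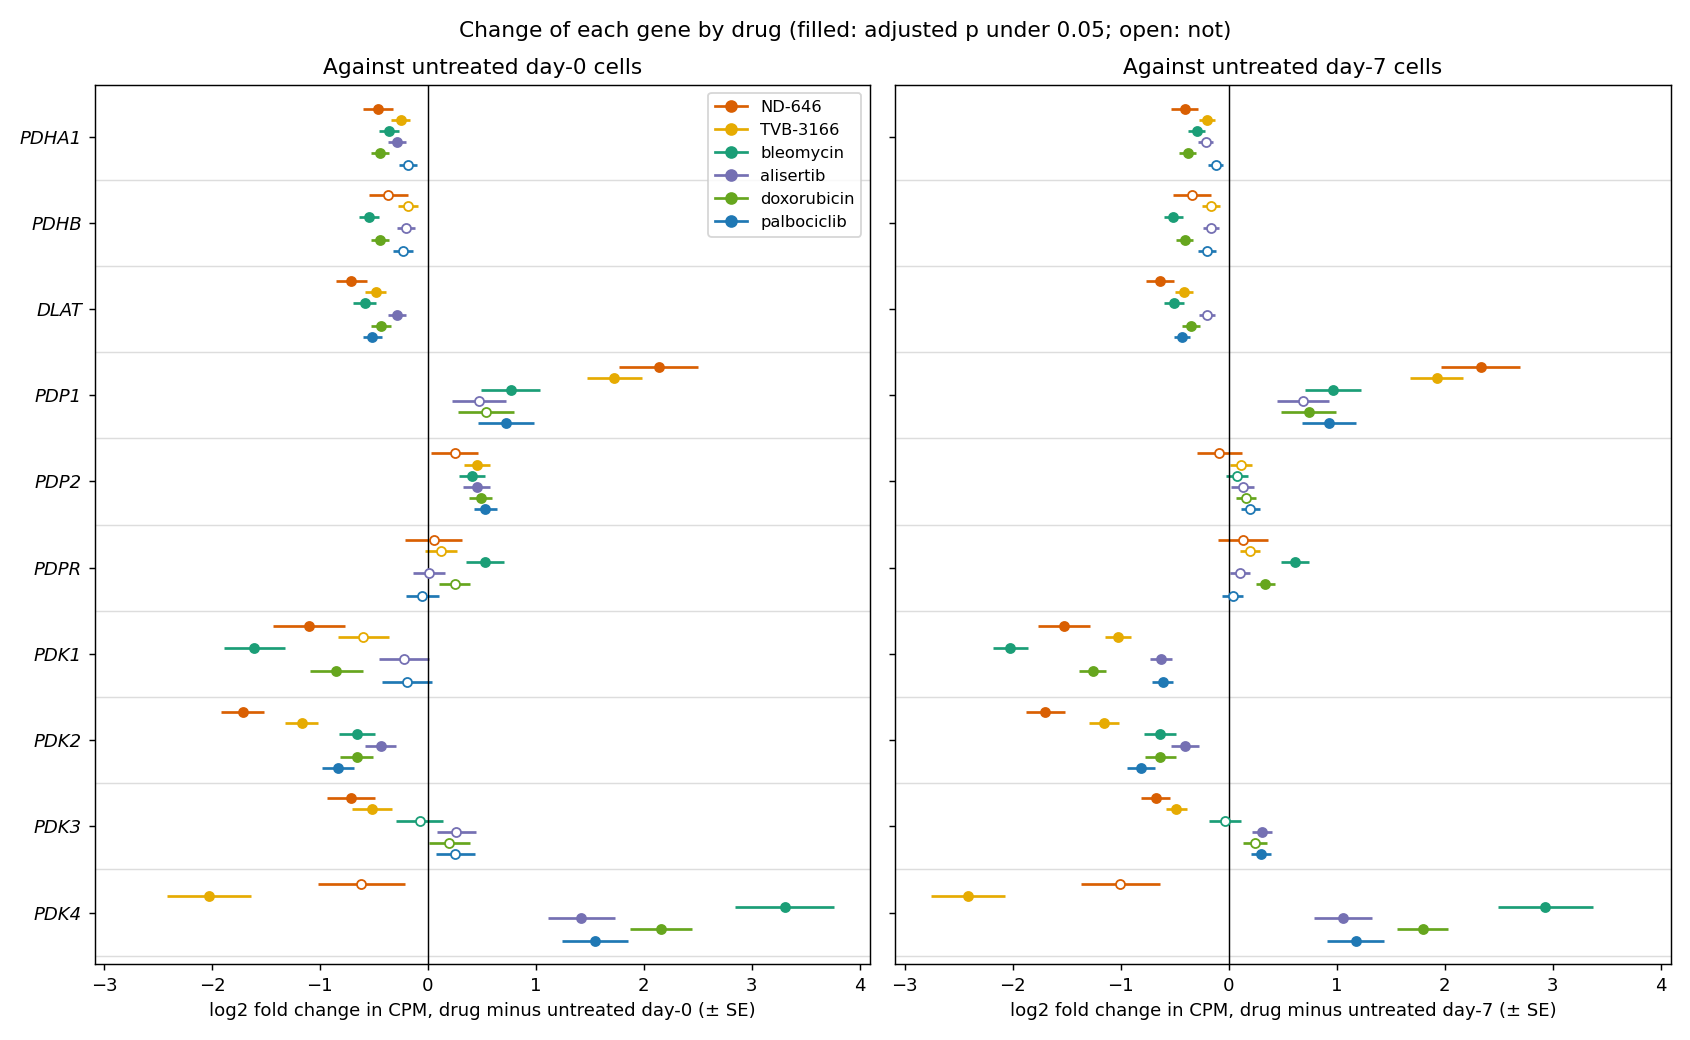
Log2 fold change in level (points, with the SE as a bar) of each gene by drug against untreated day-0 cells (left) and untreated day-7 cells (right), filled where the adjusted p-value was under 0.05. PDP1 lies farthest right for ND-646 (2.14) and TVB-3166 (1.73) in the left panel, and PDK4 spans -2.03 (TVB-3166) to 3.30 (bleomycin).

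Counted over the 10 genes, ND-646 changed 6 relative to day-0 cells (1 higher and 5 lower), where 37.9% of all 13604 genes tested were called (19.1% higher and 18.8% lower). TVB-3166 changed 7 (2 higher and 5 lower), against 55.1% of all genes (27.4% higher and 27.7% lower). Bleomycin changed 9 (4 higher and 5 lower), against 49.4% (24.1% and 25.3%), and alisertib 5 (2 and 3), against 37.3% (17.7% and 19.6%). Doxorubicin changed 7 (2 higher and 5 lower), against 48.4% (23.7% and 24.8%), and palbociclib 5 (3 and 2), against 53.2% (26.0% and 27.2%). With background shares this high, a count of 5 to 7 of 10 does not set these genes apart, and the pattern lies in which gene moved and how far. The median log2 fold change of the 10 genes was -0.54 with ND-646 and -0.37 with TVB-3166, against 0.02 and -0.01 for all genes tested, and -0.22 to -0.10 with the other drugs.

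With day-7 cells as the reference, 6 genes were called with ND-646 (1 higher and 5 lower), against 34.2% of all genes (17.2% higher and 17.1% lower), and 7 with TVB-3166 (1 and 6), against 51.5% (25.4% and 26.1%). Bleomycin gave 8 (3 higher and 5 lower), against 45.6% (22.4% and 23.2%), and alisertib 4 (2 and 2), against 19.0% (9.55% and 9.49%). Doxorubicin gave 8 (3 higher and 5 lower), against 43.4% (21.9% and 21.5%), and palbociclib 6 (3 and 3), against 44.8% (22.0% and 22.9%). The number with alisertib depended on the fit, where pairing by replicate number, which the check on pairing favoured here, gave 7 (3 higher and 4 lower) by adding PDHA1 (-0.21, adjusted p = 0.0187), DLAT (-0.20, 0.0413) and PDP1 (0.68, 0.0467). It was 0 in a fit of all 24 libraries, and 1 without day-7 replicate 3, alisertib replicate 2 or alisertib replicate 3. Calls over all genes moved in the same way. They were 2627 in the main fit, 4141 with pairing, 1141 in the fit of all 24 libraries and 1062 to 1498 in these leave-outs. Between the untreated groups, edgeR called 0 of the 10 genes, against 0.587% of all genes (0.389% higher and 0.198% lower), DESeq2 also 0, and 1 gene, PDP2, had an unadjusted p under 0.05.

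Another rule asked for a change of at least 2-fold with an unadjusted p under 0.05, and it passed fewer genes than the adjusted p except between the untreated groups and between TVB-3166 and ND-646. Under it, ND-646 changed 3 of the 10 genes against day-0 cells (PDP1, PDK1 and PDK2), where 20.7% of all genes passed. TVB-3166 changed 3 (PDP1, PDK2 and PDK4), where 17.6% did. Bleomycin changed 2 (PDK1 and PDK4, against 18.8%), and alisertib (7.90%), doxorubicin (12.9%) and palbociclib (16.7%) changed PDK4 alone. Against day-7 cells the numbers were 4 with ND-646 (17.4%), 4 with TVB-3166 (13.4%), 2 with bleomycin (14.1%), 1 with alisertib (3.27%), 2 with doxorubicin (8.77%) and 1 with palbociclib (11.2%). Between the untreated groups 0 passed (1.99% of all genes), between TVB-3166 and ND-646 1 (3.14%), and between FASTIS and other TIS cells 2 (7.14%).

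Whether the 2 kinds of senescence differed was tested directly, without any untreated library. The test took the mean of the ND-646 and TVB-3166 groups minus the mean of the other 4 drug groups. Its error came from replicate libraries within each drug, so its p-values and intervals do not measure the spread between drugs. Group means of PDK4 ran from 5.82 to 21.4 CPM among the other 4 drugs and were 1.42 and 0.528 CPM with ND-646 and TVB-3166. Of the 10 genes, 5 were called (1 higher and 4 lower), against 50.1% of the 14052 genes tested (26.1% higher and 24% lower). PDP1 was 2.49-fold higher in FASTIS cells (log2 difference 1.32, 95% interval 0.98 to 1.66, adjusted p = 3.86e-06), with no overlap between the 6 FASTIS and the 12 other libraries. PDK4 was 10.7-fold lower (-3.42, interval -3.92 to -2.92, adjusted p = 8.98e-09), and PDK2 (-0.78, interval -0.98 to -0.59, adjusted p = 2.76e-06) and PDK3 (-0.76, interval -0.94 to -0.59, adjusted p = 1.21e-06) were lower too, each without overlap. These 4 calls held under every alternative run except the 2-fold threshold, which PDK2 and PDK3 did not reach, and without the bleomycin group PDK4 was at -3.03 and PDP1 at 1.36.

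The subunits did not separate the 2 kinds in the same way. DLAT was called lower by a small margin (-0.13, interval -0.23 to -0.03, adjusted p = 0.0375), with overlapping libraries, and the call was lost when any replicate number or ND-646 replicate 1 was left out. PDHA1 (-0.03, interval -0.14 to 0.08) and PDHB (0.10, interval -0.07 to 0.26) were not called, nor were PDP2 and PDPR. PDK1 was not called either (-0.12, interval -0.37 to 0.12), but without the bleomycin group, where it was lowest, its difference was -0.42 (adjusted p = 0.00764).

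**Figure D3:**
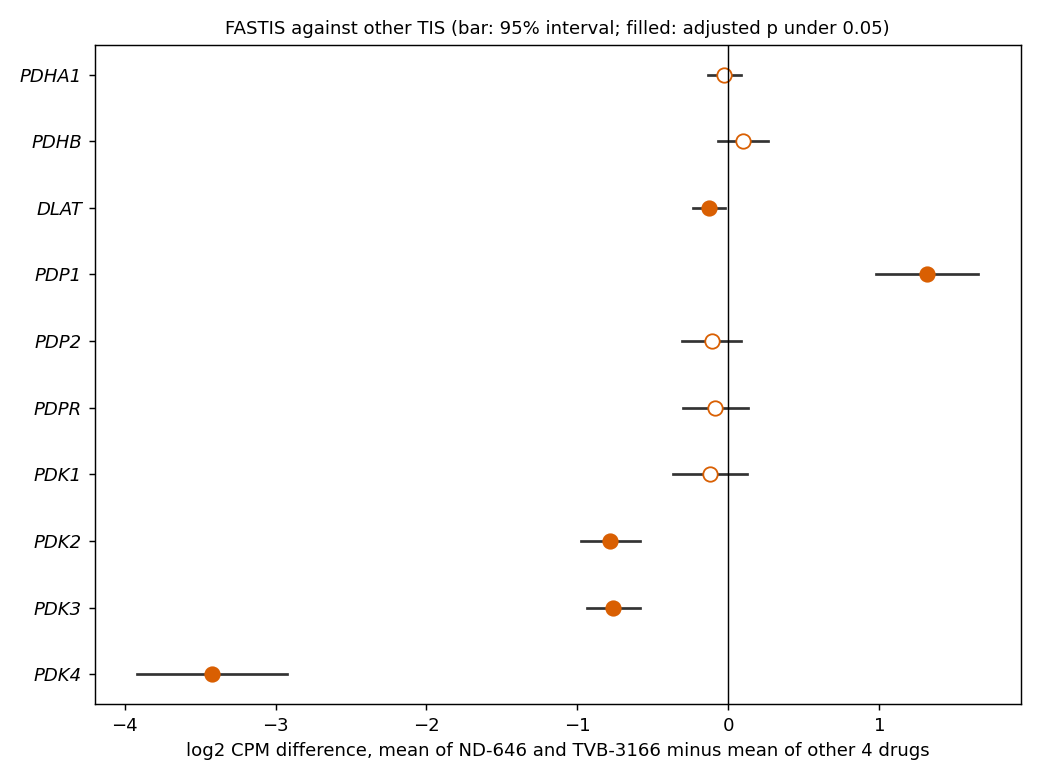
Log2 difference in level of each gene between FASTIS cells (mean of ND-646 and TVB-3166) and the other TIS cells (mean of 4 drugs), with its 95% interval as a bar and a filled point where the adjusted p-value was under 0.05. PDP1 lies to the right at 1.32, and PDK2, PDK3 and PDK4 lie to the left at -0.78, -0.76 and -3.42.

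PDK4 and PDP1 act in opposite directions on the same serines, and their levels per length of transcript were compared within each library, since a ratio within a library does not depend on its depth. The ratio of PDK4 to PDP1 in CPM per kb was 2.24, 1.40 and 1.36 in day-0 cells and 2.12, 3.13 and 2.31 in day-7 cells. It was 0.399, 0.270 and 0.178 in ND-646 cells and 0.182, 0.114 and 0.102 in TVB-3166 cells. Thus PDP1 RNA exceeded PDK4 RNA per length in the 6 FASTIS libraries, and PDK4 exceeded PDP1 in the other 18. Both genes had already been seen to differ between these groups, so this split restates their levels and is no further evidence. It also leaves out the other isoforms. PDP2 had group means of 2.84 to 4.11 CPM per kb, against 0.306 to 1.54 for PDP1, so the ratio is not a balance of all kinases and phosphatases. With bleomycin the ratio was 6.30, 20.8 and 5.71, with alisertib 3.11, 3.58 and 3.31, with doxorubicin 5, 6.52 and 4.92, and with palbociclib 2.24, 3.47 and 3.75. The side of 1 on which each library fell was the same when lengths were taken over all annotated exons.

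**Figure D4:**
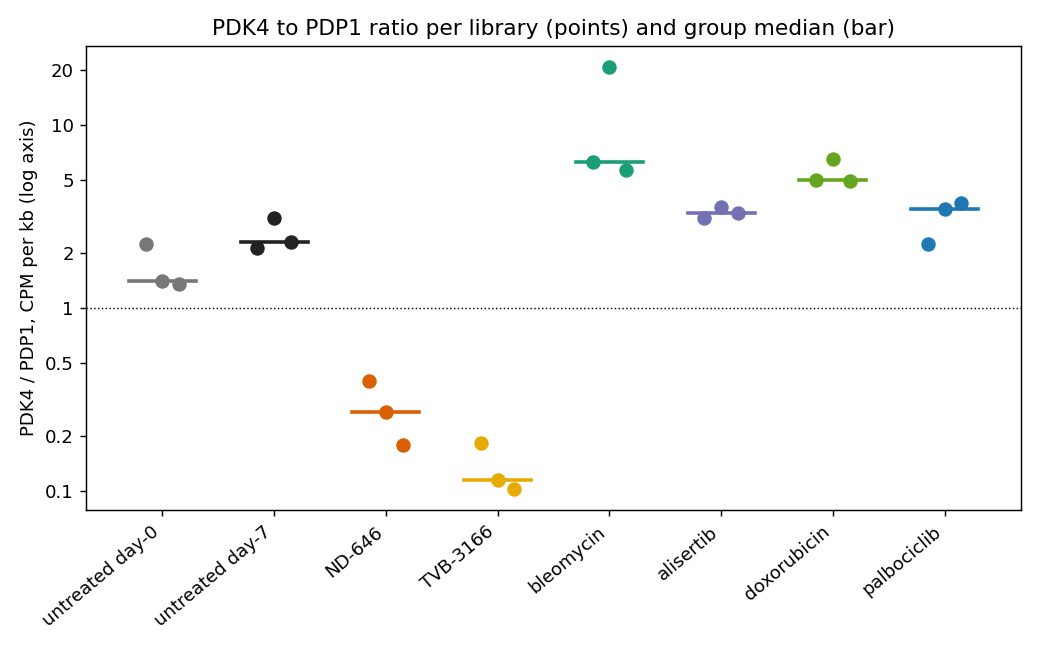
Ratio of PDK4 to PDP1 in CPM per kb of transcript (log axis) in each library, shown as points by group with a bar at the median, and a dotted line at equal levels. The 6 ND-646 and TVB-3166 libraries lie between 0.102 and 0.399, and the other 18 between 1.36 and 20.8.

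ND-646 and TVB-3166 act on successive enzymes of the same pathway and were given at the same dose and time, so they were also compared with each other. edgeR called 0 of the 10 genes, against 0.717% of all 13662 genes (0.520% higher and 0.198% lower), DESeq2 called 1 (PDK4), and 2 genes, PDK4 and PDK2, had an unadjusted p under 0.05 in edgeR. PDK4 was lower with TVB-3166 by a log2 difference of -1.41 (95% interval -2.14 to -0.68, adjusted p = 0.0923, and 0.0146 with DESeq2), with no overlap between the libraries. PDK2 was higher with TVB-3166 by 0.54 (interval 0.11 to 0.96, adjusted p = 0.233), and PDP1 differed by -0.41 (interval -1.20 to 0.37). Without ND-646 replicate 1, edgeR called 4 genes, namely PDK4 (-1.52, adjusted p = 0.0201), PDHB (0.40), PDHA1 (0.29) and PDK2 (0.63). Over all genes the calls rose as well, from 98 with every library to 1518 without that one. Whether 4 of 10 genes exceeds the share of all genes called there was not tested. The intervals with every library leave room for differences of over 2-fold in PDK4 and PDP1 between the compounds.

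Other genes that handle pyruvate and acetyl-CoA were read beside these, from lists of related genes. The counts below are against day-0 cells, where 19.1% of all genes were higher and 18.8% lower with ND-646, and 27.4% higher and 27.7% lower with TVB-3166. Of 9 genes for pyruvate import and use, 2 rose and 3 fell with ND-646, and 3 rose and 3 fell with TVB-3166. PCK2, the mitochondrial enzyme that makes phosphoenolpyruvate, rose by 2.16 ± 0.21 and 1.68 ± 0.11 (log2, adjusted p = 0.00011 and 8.92e-07), and ME1, the cytosolic malic enzyme that makes NADPH, by 1.72 ± 0.16 and 1.59 ± 0.09. PC, the pyruvate carboxylase that refills oxaloacetate, fell by 1.83 ± 0.15 and 1.44 ± 0.11 (adjusted p = 4.65e-05 and 2.33e-06), and LDHB, a lactate dehydrogenase subunit, fell by 0.78 ± 0.22 and 1.21 ± 0.10. Of 9 genes of acetyl-CoA use and supply, 2 rose and 2 fell with ND-646 and 4 rose and 3 fell with TVB-3166. ACSS2, which makes cytosolic acetyl-CoA from acetate, rose by 1.91 ± 0.25 and 2.37 ± 0.19 (adjusted p = 0.000541 and 3.42e-06), while CRAT, the carnitine acetyltransferase that buffers mitochondrial acetyl-CoA, fell by 0.95 ± 0.14 and 0.59 ± 0.10.

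The complex needs lipoic acid, made from mitochondrial fatty acid synthesis, and thiamine. Beside the counts here, 37.9% of all genes were called with ND-646 (18.8% lower) and 55.1% with TVB-3166 (27.7% lower). Of 10 genes of lipoic acid and mitochondrial fatty acid synthesis, 1 fell with ND-646 and 4 fell with TVB-3166, and none rose. MECR, the last reductase of that pathway, fell by 0.51 ± 0.16 and 0.51 ± 0.12 (adjusted p = 0.0358 and 0.00405). Of 4 genes of thiamine transport and activation, 2 fell with ND-646, and 1 rose and 2 fell with TVB-3166. SLC19A3, a thiamine transporter of the cell membrane, fell by 1.43 ± 0.31 and 1.28 ± 0.24, to 1.36 and 1.48 CPM. Among 9 genes of the sister 2-oxoacid dehydrogenases, 1 rose and 4 fell with ND-646 and 2 rose and 2 fell with TVB-3166. BCKDK, the kinase of the branched-chain complex and a relative of the PDKs, rose by 0.80 ± 0.17 and 0.62 ± 0.11 (adjusted p = 0.00674 and 0.000817), a direction opposite to that of PDK2 and PDK3 in the same cells.

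Regulators and targets known to be linked to the kinase genes were mixed. Of 12 tested transcription factor and coactivator genes, 4 rose and 3 fell with ND-646 and 6 rose and 4 fell with TVB-3166, where 37.9% and 55.1% of all genes were called in either direction. PPARA and FOXO3, both known activators of PDK4, rose by 1.08 ± 0.33 and 0.94 ± 0.19 with ND-646 and by 0.58 ± 0.15 and 0.48 ± 0.10 with TVB-3166, and the glucocorticoid receptor NR3C1 fell by 0.74 ± 0.17 and 0.64 ± 0.09. Of 12 tested genes targeted by hypoxia-inducible factors, 4 rose and 1 fell with ND-646 and 5 rose with TVB-3166, among them VEGFA (1.89 ± 0.19 and 1.65 ± 0.15), whereas PDK1, another such target, was not higher in either group.

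Of 10 tested PPAR target genes other than PDK4, 2 rose and 5 fell with each of the 2 inhibitors, where 18.8% (ND-646) and 27.7% (TVB-3166) of all genes were lower. ANGPTL4, a secreted inhibitor of lipoprotein lipase, was 10.9 CPM in day-0 cells, 0.429 CPM in ND-646 cells and 0.372 CPM in TVB-3166 cells (-4.68 ± 0.42 and -4.85 ± 0.40, adjusted p = 8.24e-05 and 3.52e-06). PLIN2, a lipid droplet coat protein, fell by 1.52 ± 0.29 and 2.57 ± 0.20. TXNIP, an inhibitor of glucose uptake, rose by 2.59 ± 0.15 and 2.68 ± 0.10. The study named ANGPTL4, ACSS2 and SLC19A3 from these same libraries, so their directions are not independent evidence. Set against the other TIS cells, 6 of the 10 PPAR targets were lower and 1 higher, where 24% and 26.1% of all genes were lower and higher, with ANGPTL4 at -4.85. Unlike PDK4, ANGPTL4 was not called higher than in day-0 cells with any of the other 4 drugs, being at -0.27 with bleomycin and 0.01 with doxorubicin.

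Over all 24 libraries, the genes most like each member that changed at least 2-fold were found by Pearson's r of log2 CPM among 11612 genes, a description over libraries that share groups. PDP1 was most like GALNT7 (r = 0.937), SERINC5 (0.935) and DENND11 (0.931), PDK2 most like CKB (0.949), MYLK3 (0.948) and SLC29A1 (0.946), PDK1 most like SLC25A12 (0.953), LRRC40 (0.941) and NDUFS1 (0.925), and PDK4 most like NLGN2 (0.930), OTUB2 (0.899) and PJA1 (0.894). SLC25A12 encodes a mitochondrial aspartate-glutamate carrier, NDUFS1 a subunit of complex I, and CKB the brain-type creatine kinase. Among the members, PDP1 and PDK2 ran opposite to each other (r = -0.926 over 24 libraries), while PDP1 and PDK4 were weakly related (-0.365).

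Exons of PDHA1, PDHB, DLAT, PDPR, PDK1 and PDK2 overlap a gene on the opposite strand, such as SAMD14 for PDK2 and PDK1-AS1 for PDK1. The libraries were stranded, but whether the counting used strand is not given in the sources used here, so reads of such partners may be included in those genes. Of the partners, only PIH1D2, which overlaps DLAT, was itself among the listed genes. PDP1, PDP2, PDK3 and PDK4 have no such overlap in the annotation.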

How the data were processed

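mRNA-seq libraries were grouped by their labels. Per the labels, the authors used HISAT2 and StringTie with the GRCh37 build. The deposited table holds whole-number, unnormalized counts per gene. The methods name a total RNA kit and the labels an mRNA kit. Counting settings are not given in the sources used here. The lowest deposited count is 1, so no gene with a 0 is listed.

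edgeR 4.0.16 (R 4.3.3) was run on these counts (filterByExpr, TMM, two-sided quasi-likelihood test) in fits of only the groups compared, without covariates, with Benjamini-Hochberg adjustment over all genes tested. FASTIS and other TIS were contrasted in a fit of the 18 treated libraries. With 3 libraries against 3, an exact permutation test cannot go below p = 0.1. The spread between replicates, above counting error in every pair, sets the precision, and no 2 libraries were identical.

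What a replicate number stands for is not stated. Same-numbered libraries deviated together (all 3 correlations over 0.1) for TVB-3166 and ND-646 (lowest 0.213), bleomycin and day-7 cells (0.107) and alisertib and day-7 cells (0.105), and were taken as paired there. The estimates and adjusted p-values printed for these comparisons are nonetheless from fits without the block, unless the pairing is named. The blocked count is given where it moved.

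All 10 genes, PDHX and DLD are named. Up to 4 genes per list are named, those that changed most among genes called with ND-646 or TVB-3166 against day-0 cells, and the 3 genes most like each member that was called with a 2-fold change. Some genes that this rule names are not reported here. Members and lists were chosen with earlier results of these data known. log2 CPM used a prior count of 2. Positions are from a GENCODE annotation lifted to GRCh37 and promoters from RefSeq. Alternatives were DESeq2 1.42.0, RLE scaling, dropping the low-count filter, a stricter one of 10 or more counts per library, one fit of all 24 libraries, a replicate block, a 2-fold threshold with an unadjusted p under 0.05, and leaving out each library. Leaving out the bleomycin group or ND-646 replicate 1 from the FASTIS contrast was chosen after seeing the data. Scripts were tested on simulated counts.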

Additional observations from a re-analysis of the deposited data

Results flagged for a closer look

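PDP1 and PDK4 were set apart because they were called with a difference of at least 2-fold in the direct test of FASTIS against other TIS cells. PDK2, PDK3 and DLAT were called in that test too, with smaller differences. For PDP1 the log2 difference in level was 1.32 (adjusted p = 3.86e-06 from edgeR), with all 6 FASTIS libraries above the 12 other treated libraries, and it was 1.46 without ND-646 replicate 1, the library farthest from its group. For PDK4 the difference was -3.42 (adjusted p = 8.98e-09), with all 6 FASTIS libraries below the 12 others, and it was -3.03 without the bleomycin group, in which replicate 2 was the highest of all libraries. These p-values measure the spread between libraries of the same drug, not between drugs. Whether the 2 genes respond to the same signal was not tested.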

How the results depend on the processing

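Of 83 calls of a member over the 15 comparisons, 57 held in every alternative other than the 2-fold threshold, and 0 called values changed sign. Some values that were not called did, such as PDK3 with bleomycin against day-0 cells, from -0.25 to 0.20. With a fold change of at least 2 and an unadjusted p under 0.05, the members called against day-0 cells were 3 with ND-646, 3 with TVB-3166, 2 with bleomycin and 1 each with alisertib, doxorubicin and palbociclib. Against day-7 cells they were 4 with TVB-3166, 2 with bleomycin, 1 with alisertib, 2 with doxorubicin and 1 with palbociclib, between TVB-3166 and ND-646 1, and in the FASTIS contrast 2, PDP1 and PDK4. In a fit of all 24 libraries, 0 members were called for alisertib against day-7 cells (1141 of all genes) and 1 for TVB-3166 against ND-646 (1268 of all genes). For the latter DESeq2 also called 1. With the replicate block, alisertib against day-7 cells gave 7 calls, where 4141 of all genes were called, against 2627 without it. The other counts stayed within 1 of those without the block. Where numbers were not taken as paired, the block ended the PDHA1 calls with ND-646 against either reference and with TVB-3166 against day-0 cells, and added PDK1 with TVB-3166 against day-0 cells and PDK4 with ND-646 and PDHB with palbociclib against day-7 cells. Leaving out the bleomycin group or ND-646 replicate 1, both chosen after seeing the data, gave 6 and 4 calls in the FASTIS contrast. With every treated library that contrast called 5 members and 50.1% of all genes. Whether the counts of 6 and 4 exceed the share of all genes called in the same fits was not tested. Over all genes, edgeR and DESeq2 called 80 and 1120 between the untreated groups and 98 and 762 between TVB-3166 and ND-646.

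Leaving out 1 library at a time gave, against day-0 cells, 3 to 8 calls with ND-646 (3 without day-0 replicate 3), 1 to 6 with alisertib (1 without alisertib replicate 1 or day-0 replicate 2) and 4 to 8 with palbociclib (8 without day-0 replicate 1). It gave 1 to 4 with alisertib against day-7 cells and 0 to 4 between TVB-3166 and ND-646 (4 without ND-646 replicate 1). Calls over all genes moved too. Against day-0 cells they were 3687 with ND-646 without day-0 replicate 3 (5157 with every library). With alisertib they were 4293 without alisertib replicate 1 and 3976 without day-0 replicate 2 (5135 with every library). With palbociclib they were 7085 without day-0 replicate 1 (7318 with every library). Between TVB-3166 and ND-646 they were 1518 without ND-646 replicate 1, against 98 with every library. In the leave-outs with 1 call for alisertib against day-7 cells they were 1062 to 1498, against 2627. The cause of these shifts was not tested. The lowest counts, 13 to 18 reads per library, were those of PDK4 with TVB-3166.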
